A study of Homo sapiens with 40 samples.

Results

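The comparison sets knockout cells that carry an empty vector, called KO vector cells here, against wild-type cells that carry an empty vector, called WT vector cells. Both lines are HEK293T, an immortalised human embryonic kidney line, and both had been given vehicle for 6 hours. The KO vector line is labelled as edited with a guide RNA against SLC25A12. The comparison uses 8 of the 40 RNA-seq libraries of the study, 4 KO vector and 4 WT vector, chosen by their labels and not by any measured value. The remaining 32 libraries belong to the same 2 lines given antimycin A (40 nM), which blocks complex III of the respiratory chain, and to 3 further lines under both treatments. These 3 lines are labelled as knockout cells given SLC25A12-F137S, knockout cells given SLC25A12-F137S with dMTS-DELE1, and knockout cells given SLC25A12-WT. The line with F137S alone and the line labelled SLC25A12-WT serve as libraries in which a difference between the lines could be measured again. All 40 libraries, those with dMTS-DELE1 included, also entered the gene filter, the scaling and the estimate of spread. The labels call the 4 libraries of a group biological replicates without saying that they were separate cultures, so p-values measure only the spread between these libraries. The labels also do not say whether the knockout line is 1 clone or a pool, and there is 1 knockout line. Loss of the carrier and any other difference between the 2 lines therefore cannot be told apart here.

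SLC25A12, also called aralar, is a carrier of the inner mitochondrial membrane that exports aspartate from the matrix in exchange for glutamate and a proton. It is a part of the malate-aspartate shuttle, which passes the reducing power of cytosolic NADH to the respiratory chain and supplies the cytosol with aspartate for nucleotide and asparagine synthesis. SLC25A13, or citrin, is its close relative and performs the same exchange. HEK293 cells carry an unstable karyotype with extra copies of many chromosomes, and separately grown sublines are known to differ in gene copy number.

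SLC25A12 mRNA stood at 3.43, 2.99, 2.96 and 2.96 counts per 1e6 counts (CPM) in KO vector cells, against 39.9, 36.1, 39.9 and 39.0 CPM in WT vector cells. All KO vector libraries lay far below all WT vector libraries, with a log2 difference of -3.65 ± 0.05 (SE, adjusted p = 3.7e-64). Differences are given as KO vector minus WT vector on the log2 scale with a standard error from edgeR's quasi-likelihood fit over all 40 libraries, and a gene rose or fell where the Benjamini-Hochberg adjusted p was below 0.05. The gene lies at chr2:171783405-171894244 (GRCh38.p14, long arm of chromosome 2). Of 16 tested genes within 1 Mb of it, 7 were higher, 2 were lower, and their differences ran from -0.47 to 0.39 with a median of 0.09. Over all tested genes 22.7% were higher and 25.6% lower. The adjacent genes DYNC1I2, a subunit of the motor dynein, and HAT1, a histone acetyltransferase, differed by 0.23 (adjusted p = 7.4e-10) and -0.03 (adjusted p = 0.47). No neighbour was lower by more than DLX1, a homeobox gene at -0.47.

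Library totals, in units of 1e6 counts, were 31.7 to 31.9 in KO vector cells and 30.7 to 31 in WT vector cells. Log2 CPM values correlated at 0.9925 to 0.9929 among KO vector libraries, at 0.9922 to 0.9927 among WT vector libraries and at 0.9826 to 0.9837 between the lines. Of 9 genes often used to describe HEK293 cells, 8 averaged at least 1 CPM in both lines, and their summed level was 563 to 571 CPM in KO vector cells against 795 to 802 CPM in WT vector cells. The largest part of this gap came from NEFM (73.8 CPM in KO vector and 225 CPM in WT vector cells), and NES was higher (0.30 ± 0.08). Epithelial markers summed to 189 to 195 CPM in KO vector cells and 138 to 145 CPM in WT vector cells, carried by the keratins KRT8 and KRT18, while 3 of the 8 were at 0 in all libraries. Mature kidney markers were 6.86 to 8.51 CPM against 11.1 to 13 CPM, fibroblast markers 18.8 to 19.7 CPM against 20.1 to 21.4 CPM, blood markers 6.42 to 7.23 CPM against 6.1 to 8.24 CPM and endothelial markers 0.629 to 0.756 CPM against 0.431 to 0.761 CPM, each for KO vector and then WT vector cells. In bulk libraries fewer cells of a kind and less RNA per cell cannot be told apart, and the part of other cell types in the results was not tested.

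Of 16739 tested genes, 8080 passed the test (48.3%), 3803 higher (22.7%) and 4277 lower (25.6%) in KO vector cells. For 7179 genes (42.9%) the 4 KO vector libraries did not overlap the 4 WT vector libraries. The median signed difference over all tested genes was -0.01 after scaling, and 572 genes (3.42%) were called at 2-fold or more, 273 of them higher (1.63%) and 299 lower (1.79%).

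The same line difference was read again in libraries that the vehicle comparison does not use. Under antimycin A, 8034 genes (48.0%) separated KO vector from WT vector cells, 3938 higher (23.5%) and 4096 lower (24.5%), and 7787 of the 8080 genes called in vehicle (96.4%) had the same sign there, 6280 of them called. Against WT vector cells under antimycin A, the F137S line gave 8127 calls (48.6%), 3973 higher (23.7%) and 4154 lower (24.8%), and 7838 of the 8080 genes (97.0%) had the sign seen in vehicle. These antimycin comparisons share the WT vector antimycin libraries with each other but no library with the vehicle comparison. The F137S libraries contained SLC25A12 mRNA at 1853 CPM in vehicle, and whether its protein was active was not tested. In the libraries labelled SLC25A12-WT, SLC25A12 stood at 38.9 CPM in vehicle, close to WT vector cells and far below the level of the F137S transgene. Against WT vector cells under antimycin A these libraries gave 1 call (0.00597%), the gene CFAP44, with 805 genes at an unadjusted p below 0.05. Of the 8080 genes, 3857 (47.7%) had the sign seen in vehicle. Whether these libraries hold what their label says was not tested. F137S and KO vector cells in vehicle, compared after the values had been seen, differed at 14 genes (0.0836%), with SLC25A12 and the heat shock gene HSPA6 the largest. The line difference itself changed with antimycin A for 262 genes (1.57%).

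**Figure D1:**
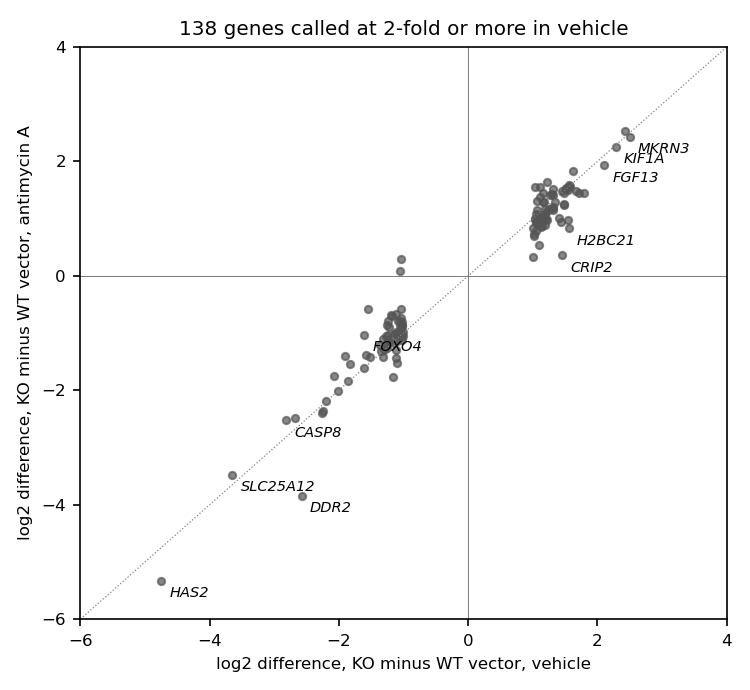
Log2 differences of KO vector minus WT vector cells in vehicle (horizontal axis) and under antimycin A (vertical axis) for the 138 genes called at 2-fold or more in vehicle with a mean log2 CPM of at least 1; the dotted line marks equal values. Of the 138 genes, 136 had the same sign under antimycin A and 134 were also called there.

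Among genes with a mean log2 CPM of at least 1 over the 8 libraries that the naming rule takes, the largest fall was that of HAS2, the synthase of hyaluronan, a long sugar polymer of the cell surface. It stood at 1.27, 0.597, 0.851 and 0.787 CPM in KO vector cells, against 21, 23.8, 25.6 and 24.3 CPM in WT vector cells. HAS2 was thus low in every KO vector library (-4.75 ± 0.21, adjusted p = 1.6e-19), and the F137S line matched KO vector cells with 0.924 CPM while the libraries labelled SLC25A12-WT had 25.5 CPM. CASP8, the protease that starts apoptosis downstream of death receptors, stood at 3.78, 4.65, 4.44 and 3.97 CPM in KO vector cells, against 28.6, 30.9, 29.3 and 30.7 CPM in WT vector cells (-2.83 ± 0.08, adjusted p = 2e-44). DDR2, a receptor tyrosine kinase that binds fibrillar collagen, stood at 6.04, 5.78, 6.46 and 6.61 CPM in KO vector cells, against 36.1, 39.0, 38.6 and 35.1 CPM in WT vector cells (-2.58 ± 0.07). The naming rule took only genes whose groups did not overlap, which held for 42.9% of all tested genes.

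Other large falls were spread over genes of different kinds. TENM1, a teneurin that bridges cells at synapses, had 47.5, 48.4, 41.7 and 48.6 CPM in KO vector cells, against 202, 218, 227 and 212 CPM in WT vector cells (-2.21 ± 0.04, adjusted p = 5.5e-35). NEFM, the medium neurofilament chain, averaged 73.8 ± 2.45 CPM in KO vector cells and 225 ± 7.78 CPM in WT vector cells (SD, n = 4 each; -1.61 ± 0.03). The light chain NEFL fell by less (-0.36 ± 0.04). TNC, the matrix glycoprotein tenascin C, averaged 1.77 ± 0.262 CPM against 7.17 ± 0.497 CPM (-2.02 ± 0.13), and EDA2R, a receptor of the tumour necrosis factor family, 2.74 ± 0.344 CPM against 9.88 ± 1.07 CPM (-1.86 ± 0.10), each in KO vector and then WT vector cells. Among transcription factors FOXO4, a forkhead factor held in the cytoplasm by growth factor signals, fell to 16.5 ± 0.429 CPM in KO vector cells, against 50.4 ± 3.13 CPM in WT vector cells (-1.61 ± 0.05). NAPRT, which makes NAD from nicotinic acid, was lower (-2.27 ± 0.48) but uneven, at 0.794, 0.912, 2.68 and 0.755 CPM in KO vector cells against 6.52, 5.52, 3.73 and 9.06 CPM in WT vector cells.

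Genes that rose included KIF1A, the kinesin that carries synaptic vesicle precursors along axons. It stood at 113, 111, 114 and 113 CPM in KO vector cells, against 23.8, 24.6, 23.0 and 21.3 CPM in WT vector cells (2.28 ± 0.04, adjusted p = 1.5e-60). MKRN3, an imprinted gene that restrains the onset of puberty, averaged 6.91 ± 0.588 CPM in KO vector cells and 1.22 ± 0.249 CPM in WT vector cells (2.50 ± 0.13). FGF13, an intracellular member of the fibroblast growth factor family that binds sodium channels, averaged 22.4 ± 1.48 CPM in KO vector cells and 5.21 ± 0.299 CPM in WT vector cells (2.1 ± 0.08). Groups without overlap were again required by the naming rule for these genes. The Notch ligand JAG1 (1.56 ± 0.08), the secreted heparin-binding growth factor MDK (1.57 ± 0.04), the protease inhibitor SPINT2 (1.51 ± 0.04) and the insulin-like growth factor binding protein IGFBP7 (1.66 ± 0.13) also rose, as did TPTE (2.43 ± 0.12), a testis phosphatase homologue with near-identical copies in the genome, whose value is therefore uncertain.

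**Figure D2:**
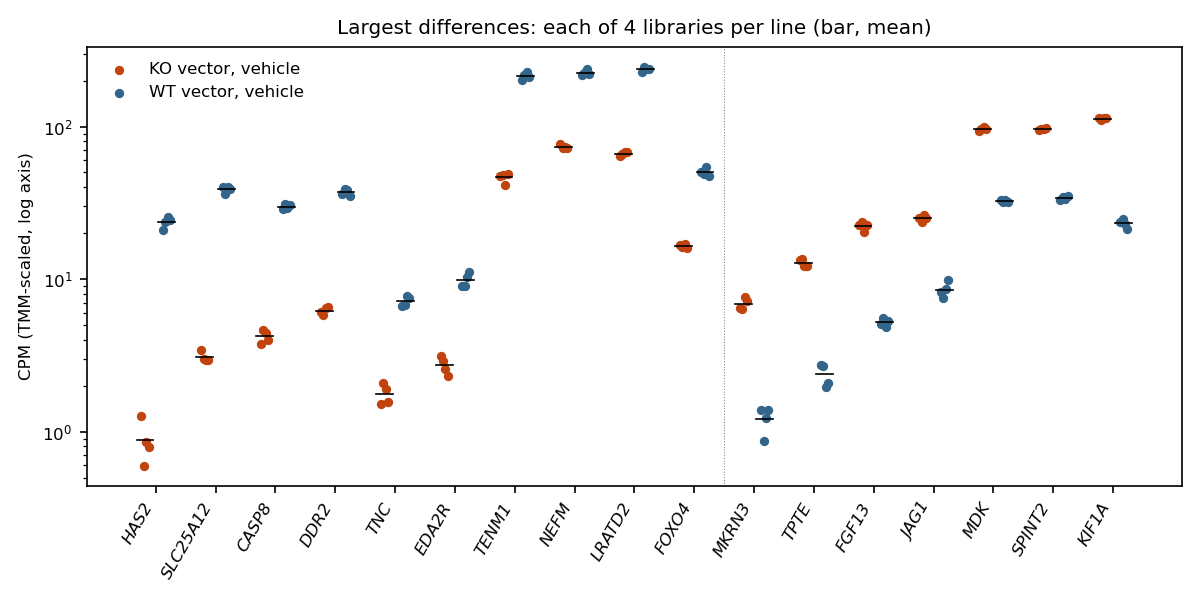
CPM of each library (log axis) for genes with the largest differences, with the 4 KO vector libraries left of the 4 WT vector libraries and a bar at each mean. Genes left of the dotted line were lower and genes right of it higher in KO vector cells. No gene shown has overlapping groups, which the naming rule required of the largest differences.

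A small set of genes was read in 1 line and practically absent from the other, taken as a mean of at least 1 CPM in 1 line and at most 3 counts over the 4 libraries of the other. There were 13, of which 3 were present in KO vector cells and 10 in WT vector cells. TICAM1, the adaptor that links Toll-like receptor 3 to interferon induction, had 0 counts in KO vector libraries and 132, 122, 109 and 111 counts in WT vector libraries. Set against a floor of 3 counts over the group, its level was at least 166-fold lower in KO vector cells. The gene lies on the short arm of chromosome 19, described below, in a stretch of 40 tested genes with a median of -0.53. SLC19A3, a thiamine transporter, had 0 counts in KO vector cells against 417 in WT vector cells, and was at least 146-fold lower. Both were also scarce in F137S vehicle libraries (0 and 2 counts) and present in the libraries labelled SLC25A12-WT (444 and 425 counts). The others of this kind were ARMCX2, the embryonic globin HBE1, the meiotic gene HORMAD1, the non-coding LINC01419, and 4 genes close together on the long arm of the X chromosome (chrX:152166234-152769689, GRCh38.p14), namely the GABA receptor subunit GABRA3 and the cancer-testis genes CSAG1, CSAG3 and MAGEA6. MAGEA6 had 0 counts in KO vector cells and 1719 in WT vector cells, and its neighbours MAGEA3 and MAGEA12 had 4 and 8 counts against 1773 and 1567. These MAGEA genes are near-identical, so reads may be split among them. In the other direction CAMP, the precursor of the antimicrobial peptide LL-37, had 208 counts in KO vector cells and 0 in WT vector cells (at least 65.9-fold higher), PADI4, which converts arginine in histones to citrulline, had 151 and 0 (at least 47.8-fold higher), and the myosin MYO3B had 209 and 1.

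Genes that work with the carrier differed by little. Of 27 tested genes of the malate-aspartate shuttle and aspartate metabolism, 0 were higher and 13 lower, against 22.7% and 25.6% of all tested genes, with a median of -0.11. SLC25A13, the other aspartate carrier, fell to 116 CPM in KO vector cells, against 132 CPM in WT vector cells (-0.19 ± 0.03, adjusted p = 1.1e-08). SLC25A11, which exchanges malate for 2-oxoglutarate and forms the other membrane step of the shuttle, fell further (-0.38 ± 0.03). SLC25A11 lies on the short arm of chromosome 17, where 156 of 291 tested genes were lower (53.6%), with a median of -0.19. Among the enzymes, the malate dehydrogenases MDH1 (-0.16 ± 0.02) and MDH2 (-0.10 ± 0.02) and the mitochondrial aminotransferase GOT2 (-0.11 ± 0.02) fell slightly, and the cytosolic GOT1 stood at 71.6 CPM in KO vector cells and 72.9 CPM in WT vector cells (adjusted p = 0.51). GLUD1, which deaminates glutamate (-0.28 ± 0.02), and CAD, which uses aspartate for pyrimidines (-0.10 ± 0.02), were lower too. The largest change after SLC25A12 was in SLC1A3, a plasma membrane importer of aspartate and glutamate, at 50.3, 54.3, 51.0 and 51.3 CPM in KO vector cells against 85.9, 86.0, 89.1 and 84.4 CPM in WT vector cells (-0.74 ± 0.04). The asparagine synthetase ASNS was low in both lines (1.79 CPM in KO vector and 2.32 CPM in WT vector cells; -0.37 ± 0.15, adjusted p = 0.039), and its call was lost under 11 of 16 alternatives. The glycerol phosphate shuttle enzyme GPD2, which offers another route for cytosolic NADH, stood at 68.0 CPM in KO vector and 68.1 CPM in WT vector cells (adjusted p = 0.97).

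Early response genes and feedback inhibitors of the ERK kinase pathway were mostly lower. ERK is activated by growth factors and induces transcription factors of the FOS, JUN and EGR families within minutes, together with phosphatases (DUSP) and Sprouty proteins (SPRY, SPRED) that dampen it. Of 26 tested members, 1 rose (3.85%) and 18 fell (69.2%), against 22.7% and 25.6% of all tested genes, with a median of -0.53. Without 3 members on the short arm of chromosome 19, described below, 1 rose and 15 fell. MYC stood at 109, 104, 106 and 105 CPM in KO vector cells, against 170, 179, 169 and 174 CPM in WT vector cells (-0.70 ± 0.04, adjusted p = 3.8e-21). JUN stood at 145, 148, 156 and 142 CPM in KO vector cells, against 215, 215, 222 and 224 CPM in WT vector cells (-0.57 ± 0.03). Neither gene's groups overlapped, as for 42.9% of all tested genes, and both were lower under antimycin A as well (-0.87 and -0.82). Among the inhibitors, DUSP5, a nuclear phosphatase of ERK (-1.19 ± 0.12), DUSP4 (-0.87 ± 0.16) and SPRY1 (-0.79 ± 0.08) fell. EGR1 fell by a similar amount (-1.06 ± 0.17) at a low level, 1.69 CPM in KO vector and 3.52 CPM in WT vector cells. The exception was DUSP2, which rose (0.85 ± 0.08), and FOS (-0.09 ± 0.18, adjusted p = 0.73) and DUSP6 (0.29 ± 0.29, adjusted p = 0.42) did not pass, with FOS at 1.72 CPM in KO vector and 1.83 CPM in WT vector cells.

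Genes that expand the folding capacity of the endoplasmic reticulum (ER) were lower almost as a block. They are induced by ATF6 and XBP1, transcription factors released when unfolded proteins build up in the ER. Of 26 tested members 0 rose and 22 fell (84.6%), against 22.7% and 25.6% of all tested genes, with a median of -0.26. HSPA5, the main ER chaperone BiP, stood at 959, 974, 948 and 932 CPM in KO vector cells, against 1515, 1449, 1504 and 1494 CPM in WT vector cells (-0.65 ± 0.02, adjusted p = 9.7e-28). HERPUD1, a membrane protein of ER-associated degradation, stood at 66.7, 70.4, 67.0 and 66.2 CPM in KO vector cells, against 140, 131, 132 and 134 CPM in WT vector cells (-0.99 ± 0.03). In both genes every KO vector library lay below every WT vector library, and 42.9% of all tested genes had groups without overlap. The co-chaperones SDF2L1 (-0.92 ± 0.04) and DNAJB9 (-0.71 ± 0.05), the lectin chaperone CALR on the short arm of chromosome 19 (-0.65 ± 0.02), the chaperone HSP90B1 (-0.42 ± 0.02) and the secreted factors CRELD2 (-0.55 ± 0.04) and MANF (-0.44 ± 0.04) were lower. XBP1 itself fell by less (-0.19 ± 0.02), and ATF6 (0.00 ± 0.03) and the mannosidase-like EDEM1 (-0.02 ± 0.03) did not pass. Under antimycin A, 1 member was higher and 22 lower with a median of -0.17, and for HSPA5, HERPUD1, SDF2L1 and DNAJB9 the line difference was smaller there, as tested directly (antimycin minus vehicle 0.20, 0.30, 0.34 and 0.45).

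These promoters are shown because they hold the ER stress elements through which ATF6 and XBP1 act. The elements were searched on both strands as ERSE, which is CCAAT, then 9 bases of any kind, then CCACG, and as ERSE-II, which is ATTGG, then 1 base of any kind, then CCACG. The pair share CCACG at different spacings, and the opening letters of ERSE-II are the reverse complement of those of ERSE. The search covered RefSeq promoters of GRCh38.p14 running from 250 bases before to 50 after each gene's start. Capitals mark the match, and each sequence is given on the strand of its gene. HSPA5 lies on the minus strand at chr9:125241294-125241593 and has ERSE, HERPUD1 on the plus strand at chr16:56931892-56932191 and SDF2L1 on the plus strand at chr22:21642052-21642351 have ERSE-II, which in SDF2L1 is read on the opposite strand.
HSPA5: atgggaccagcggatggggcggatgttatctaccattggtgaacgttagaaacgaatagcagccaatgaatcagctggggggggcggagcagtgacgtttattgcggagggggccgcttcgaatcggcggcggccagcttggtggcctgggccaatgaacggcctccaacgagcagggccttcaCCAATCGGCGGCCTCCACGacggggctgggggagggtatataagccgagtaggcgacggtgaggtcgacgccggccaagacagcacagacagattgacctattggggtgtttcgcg
HERPUD1: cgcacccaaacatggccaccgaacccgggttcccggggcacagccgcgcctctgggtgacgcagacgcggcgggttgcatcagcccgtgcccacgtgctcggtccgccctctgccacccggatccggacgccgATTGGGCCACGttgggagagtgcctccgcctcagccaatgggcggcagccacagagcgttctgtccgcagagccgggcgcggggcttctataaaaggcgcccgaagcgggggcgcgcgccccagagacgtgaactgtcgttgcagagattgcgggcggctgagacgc
SDF2L1: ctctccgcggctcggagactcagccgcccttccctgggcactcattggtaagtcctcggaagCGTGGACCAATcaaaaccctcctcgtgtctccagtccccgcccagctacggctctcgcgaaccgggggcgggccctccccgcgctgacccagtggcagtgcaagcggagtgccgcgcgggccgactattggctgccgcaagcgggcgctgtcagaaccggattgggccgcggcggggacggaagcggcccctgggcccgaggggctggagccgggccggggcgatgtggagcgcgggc

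ERSE was found in 7 of the 23 ER members with a promoter sequence and in 0.145% of the promoters of 12411 tested genes (0.0769% of all 35116 promoters). ERSE-II was found in 3 of the 23 and in 0.121% of tested genes (0.0541% of all). The list was made of ATF6 and XBP1 targets, so a high share of these elements in it was given by its choice. The 10 members with either element were all lower in KO vector cells, with a median of -0.49. Of all 26 tested members of the list, 22 were lower, with a median of -0.26. Whether the elements go with the fall was not tested. Over the transcriptome 33 tested genes had either element, of which 3 rose and 21 fell (median -0.19), while 22.7% and 25.6% of all tested genes did so. Outside the ER list these were 23 genes, 3 higher and 11 lower (median -0.09). They included SERP1, which protects newly made membrane proteins (-0.50 ± 0.02), FICD, which modifies BiP (-0.52 ± 0.09), and the ER oxidase ERO1B (-0.30 ± 0.04). The 3 that rose, CAMTA1, CNKSR1 (whose call was lost when any of 4 single libraries was left out) and ZNF17, all lie in chromosome stretches that were higher as a whole. A match describes letters in this window only, and the 10 members were read in the same libraries as the list's counts.

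**Figure D3:**
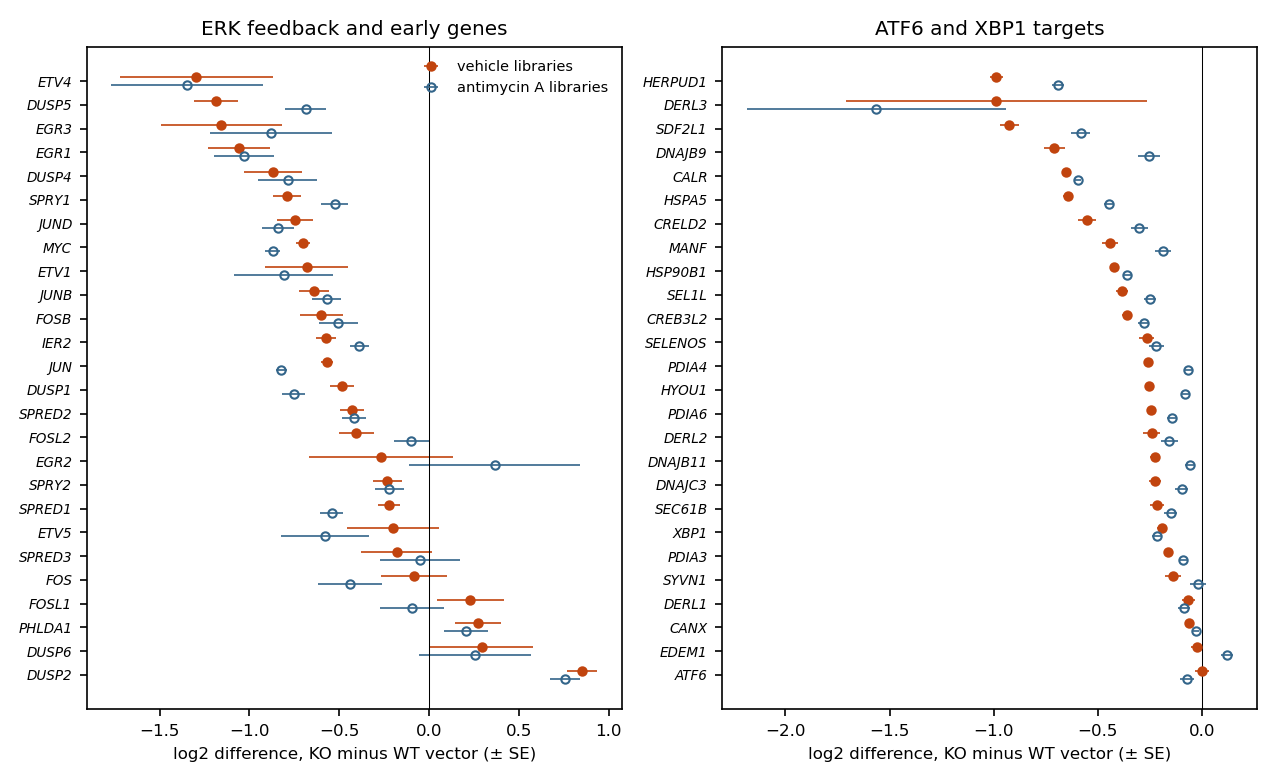
Log2 difference ± SE of KO vector minus WT vector cells for each tested member of the ERK list (left) and of the ATF6 and XBP1 list (right), in vehicle libraries (filled) and antimycin A libraries (open). Most ERK members lie left of 0 in both treatments, DUSP2 is the 1 member called higher, and 22 ER members were called lower in vehicle.

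Part of the difference between the lines followed chromosome position. Of 410 blocks of 40 neighbouring tested genes, 39 had a median log2 difference beyond 0.2 in either direction, 17 higher and 22 lower in KO vector cells. All 39 had the same sign under antimycin A, 37 of them beyond 0.15 there, and none of them had a median beyond 0.04 in either direction when the libraries labelled SLC25A12-WT were set against WT vector cells under antimycin A. The clearest stretch was the short arm of chromosome 19, where 362 of 489 tested genes were lower (74.0%) and 17 higher, with a median of -0.50. Its 12 blocks, from 0.1 to 22.1 Mb, had medians of -0.56 to -0.40, and the arm's median was -0.50 between the same lines under antimycin A and -0.49 for F137S against WT vector cells. Other lower stretches were 4 blocks of the short arm of chromosome 16 (-0.28 to -0.22) and 6 blocks of chromosome 17 (-0.39 to -0.21). Higher stretches were 8 blocks of the short arm of chromosome 1 within 39.8 Mb of its end (0.21 to 0.32), 3 blocks of the long arm of chromosome 8 (0.25 to 0.36), 3 blocks of the long arm of chromosome 19 (0.25 to 0.30), and a block of chromosome 6 that holds a cluster of histone genes (0.36), where 19 genes were higher and 0 lower. The remaining higher blocks were 1 on chromosome 3 (0.21) and 1 on chromosome 4 (0.20). Gene copy number was not measured in these libraries, and its part was not tested. The 39 blocks held 9.49% of tested genes with a known position and 12.8% of the genes called at 2-fold or more, so most of the large differences lay elsewhere.

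**Figure D4:**
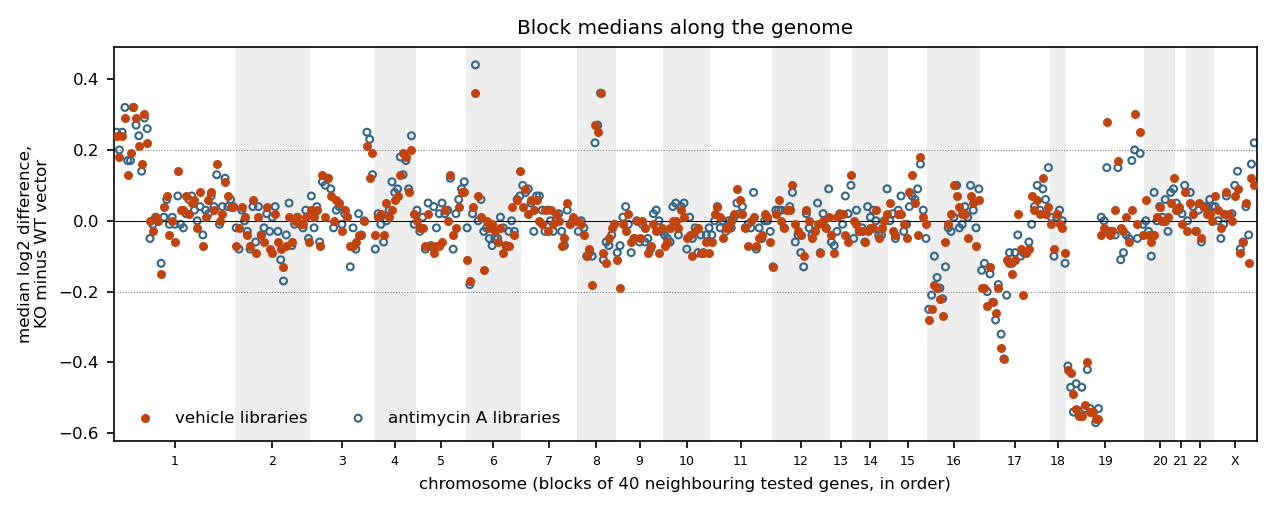
Median log2 difference of KO vector minus WT vector cells in blocks of 40 neighbouring tested genes along the chromosomes, in vehicle (filled) and antimycin A (open) libraries, with dotted lines at 0.2 either way. The short arm of chromosome 19 lies between -0.56 and -0.40 in vehicle, and the start of chromosome 1 lies above 0.

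Several gene groups had members in these stretches. Over all tested genes 22.7% rose and 25.6% fell, which the counts below are to be set against. Of 19 mitochondrial chaperones and proteases, 0 rose and 14 fell (median -0.14), and the 2 largest falls, the matrix proteases CLPP (-0.70 ± 0.04) and LONP1 (-0.56 ± 0.03), lie on the short arm of chromosome 19. Outside the 39 blocks, 0 of 14 rose and 10 fell, among them OMA1, the stress-activated protease of the inner membrane (-0.38 ± 0.04). Of 37 nuclear genes of respiratory complex I, 4 rose and 15 fell, and NDUFA7 (-0.70 ± 0.06), NDUFB7 (-0.62 ± 0.05), NDUFA13 (-0.57 ± 0.05) and NDUFS7 (-0.50 ± 0.05) are all on that arm. Of 38 genes of complexes II to V, 6 rose (15.8%) and 15 fell (39.5%). UQCRB, a complex III subunit on the long arm of chromosome 8, was higher (0.42 ± 0.03). Of 75 cytosolic ribosomal protein genes 5 rose and 50 fell (median -0.12), and outside the blocks 2 of 64 rose and 44 fell, so that the small fall was also present outside these stretches. DNMT1, which copies DNA methylation onto new strands (-0.54 ± 0.02), and its partner UHRF1 (-0.40 ± 0.02) also lie on the short arm of chromosome 19. In their list 11 of the 32 genes rose (34.4%) while 7 fell (21.9%). Of 79 KRAB zinc finger genes, repressors clustered on chromosome 19, 38 rose and 19 fell. The 39 blocks held 53 of the 79, which contribute to those block medians, and outside the blocks 14 of 26 rose and 2 fell. ZNF701 on the long arm was higher (0.73 ± 0.10) and ZNF208 on the short arm lower (-3.06 ± 0.20).

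Genes of the extracellular matrix moved in both directions. Of 30 laminins, fibronectin and other glycoproteins, 17 rose and 11 fell, with LAMA2 higher (1.53 ± 0.23) and THBS4 lower (-1.17 ± 0.21) beside TNC and IGFBP7. Of 30 collagens and modifying enzymes 8 rose (26.7%) and 11 fell (36.7%), near the shares of 22.7% and 25.6% over all tested genes. The basement membrane chains COL4A3 (0.88 ± 0.20) and COL4A4 (0.82 ± 0.19) were higher, and the fibrillar chains COL27A1 (-0.85 ± 0.05) and COL3A1 (-1.32 ± 0.23) lower. Among proteoglycans the hyaluronan-binding VCAN fell to 34.2 CPM in KO vector cells, against 66.4 CPM in WT vector cells (-0.95 ± 0.05). In that list 8 of 27 members were higher (29.6%) and 8 lower (29.6%), also near the shares over all tested genes. Of 23 metalloproteases and inhibitors, 3 rose and 9 fell, including the inhibitor TIMP3 (-0.81 ± 0.04) and the proteases MMP14 (-0.83 ± 0.19) and ADAMTS1 (-0.46 ± 0.02). Of 18 cadherins, adhesion proteins between cells, 9 rose and 2 fell, with CDH2 at 82.5 CPM in KO vector and 60.4 CPM in WT vector cells (0.45 ± 0.03).

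Neuronal and developmental genes were likewise mixed. The shares to set beside their counts are 22.7% higher and 25.6% lower over all tested genes. Of 29 kinesins of axonal transport and neuronal cytoskeleton genes, the list of KIF1A and NEFM, 10 rose and 9 fell (median 0.00). Of 33 teneurins and axon guidance genes 9 rose and 17 fell, with NRP2, a receptor of semaphorins, lower (-0.89 ± 0.06). The microtubule regulator STMN2 was nearly lost, at 0.276 CPM in KO vector against 4.09 CPM in WT vector cells (-3.87 ± 0.28), although it lies in a stretch of chromosome 8 that was higher. Of 38 HOX genes, which set position along the body axis, 5 rose and 19 fell. HOXC8 (-1.24 ± 0.08) fell most among those named, and HOXB9 (-0.77 ± 0.04) and HOXB6 (-0.67 ± 0.08) lie in a block of chromosome 17 with a median of -0.21 in vehicle and -0.09 under antimycin A, to which the HOXB genes themselves contribute. Outside the 39 blocks 5 of 29 HOX genes rose and 12 fell. Among 71 other developmental transcription factors 13 rose and 30 fell, with RUNX1 lower (-1.02 ± 0.10). Its relative RUNX3 (0.83 ± 0.07), which lies in the higher stretch of chromosome 1, and the endoderm factor FOXA1 (1.09 ± 0.08) were higher. Of 20 Notch pathway genes 8 rose and 1 fell: beside the ligand JAG1, the target HES1 rose (0.43 ± 0.05) and the target HEY1 fell (-0.50 ± 0.02). Outside the 39 blocks 5 of 15 Notch pathway genes rose and 0 fell. In the Wnt list 10 of 40 were higher (25.0%) and 9 lower (22.5%), near the shares over all tested genes. Its inhibitor SFRP1 rose (1.19 ± 0.09) and the receptor LGR5 fell (-1.26 ± 0.14).

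In metabolism, 3 of 29 glycolytic and hypoxia-inducible genes rose (10.3%) and 17 fell (58.6%), with a median of -0.14. Over all tested genes 22.7% rose and 25.6% fell. LDHA, which makes lactate and restores cytosolic NAD, fell to 1145 CPM in KO vector cells, against 1453 CPM in WT vector cells (-0.34 ± 0.02), and HK2, the first enzyme of glycolysis, fell as well (-0.40 ± 0.03). NDRG1, a hypoxia-inducible gene, fell more (-0.97 ± 0.04), while the neuronal enolase ENO2 rose (0.91 ± 0.04). Of 13 genes of NAD synthesis 4 rose (30.8%) and 6 fell (46.2%). NAMPT, the rate-limiting enzyme of NAD salvage, stood at 226, 214, 222 and 236 CPM in KO vector cells, against 368, 377, 385 and 363 CPM in WT vector cells (-0.73 ± 0.02), and the downstream enzymes NMNAT1 (0.79 ± 0.06) and NMNAT2 (0.85 ± 0.09) rose. NMNAT1 lies in the higher stretch of chromosome 1. Of 31 genes of cholesterol and fatty acid synthesis, 10 rose (32.3%) and 12 fell (38.7%). The sterol sensor INSIG1 stood at 240 CPM in KO vector cells and 406 CPM in WT vector cells (-0.75 ± 0.03). Of 28 genes of the tricarboxylic acid cycle and pyruvate entry 9 rose (32.1%) and 10 fell (35.7%).

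The ATF4 target genes of the integrated stress response, a translation control programme that mitochondrial inhibitors switch on, were only modestly different before any inhibitor was given. Of 37 tested, 8 rose (21.6%) and 18 fell (48.6%) in vehicle, against 22.7% and 25.6% of all tested genes, with a median of -0.08. There were 1 higher and 33 lower under antimycin A (median -0.31), where 23.5% and 24.5% of all tested genes were so. ATF4 stood at 634 ± 4.67 CPM in KO vector cells and 600 ± 5.26 CPM in WT vector cells (0.08 ± 0.02, adjusted p = 7e-05). ALDH1L2, a mitochondrial folate enzyme (-0.59 ± 0.03), and ATF3 (-0.38 ± 0.05) fell, whereas the cystine transporter SLC7A11 (0.60 ± 0.03) and SESN2 (0.44 ± 0.03), which lies in the higher stretch of chromosome 1, rose. CHAC1 (0.13 ± 0.15, adjusted p = 0.52) and TRIB3 (-0.06 ± 0.05, adjusted p = 0.34) did not pass. In the antioxidant list, 9 of 31 rose (29.0%) and 10 fell (32.3%). NQO1 stood at 64.7 CPM in KO vector and 33.2 CPM in WT vector cells (0.96 ± 0.04), with HMOX1 higher (0.72 ± 0.04) and MGST1 lower (-0.85 ± 0.06). Of 20 heat shock chaperones 4 rose and 12 fell, among them HSPA1B (-0.58 ± 0.08), whose near-identical copy HSPA1A (-0.54 ± 0.09) shares its reads.

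Death and innate immune genes other than CASP8 and TICAM1 moved in both directions. Over all tested genes 22.7% rose and 25.6% fell. Of 21 death receptor and caspase genes 8 rose (38.1%) and 5 fell (23.8%), with the receptor FAS lower (-0.55 ± 0.09) and the caspase CASP9 higher (0.41 ± 0.06). Of 37 interferon and innate immune genes 11 rose (29.7%) and 5 fell (13.5%), with a median of 0.17. Those higher included IFI44L (1.19 ± 0.14), IFI6 in the higher stretch of chromosome 1 (0.84 ± 0.09) and OAS3 (0.64 ± 0.10). The 39 chromosome blocks held 3 members of this list, and outside them 9 of 34 rose and 5 fell (median 0.15). Of 35 cell cycle genes 10 rose (28.6%) and 12 fell (34.3%), near the shares over all tested genes (22.7% and 25.6%). The cyclin CCND1 fell to 99.3 CPM in KO vector cells, against 138 CPM in WT vector cells (-0.48 ± 0.03), and the inhibitor CDKN1B rose to 68.9 CPM in KO vector cells, against 47.4 CPM in WT vector cells (0.54 ± 0.04). Of 20 p53 targets 5 rose and 9 fell.

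**Figure D5:**
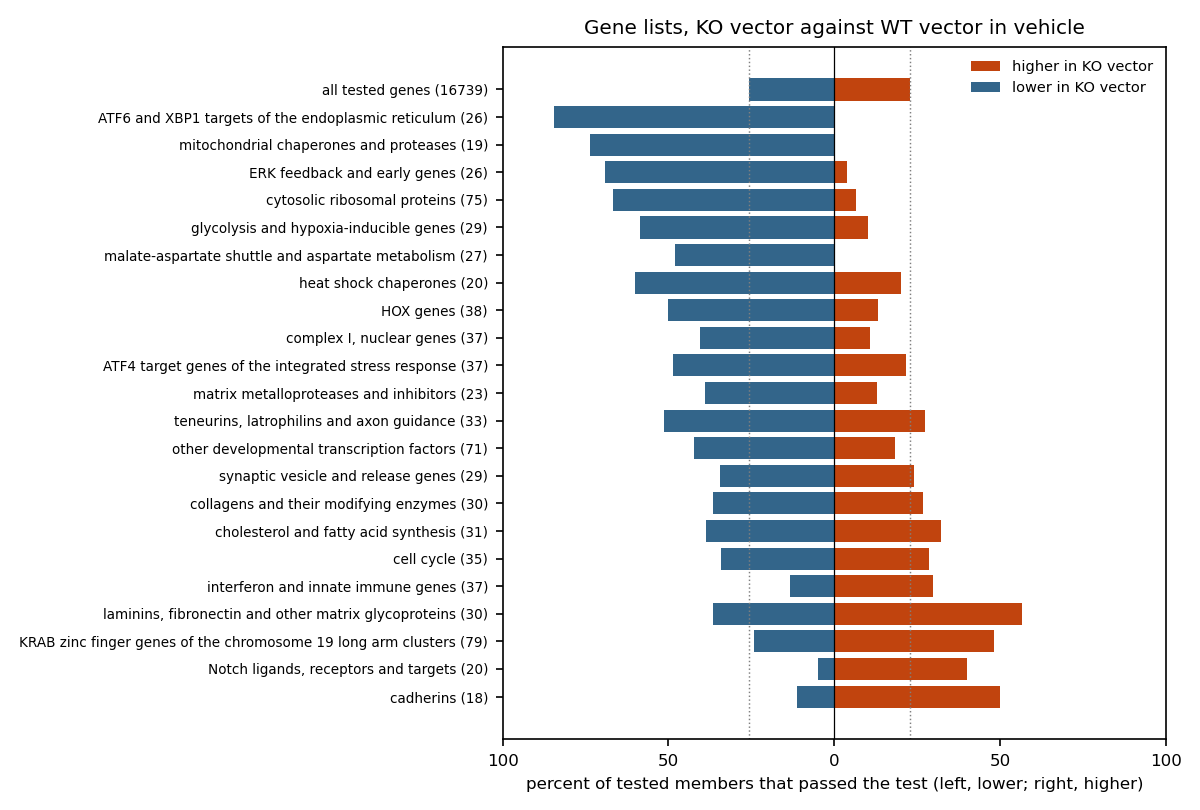
Percent of tested members (number in brackets) that passed the test lower (left) or higher (right) in KO vector cells for gene lists and all tested genes, with dotted lines at the values of all tested genes (25.6% lower and 22.7% higher). The ER list reaches 84.6% lower and the ERK list 69.2% lower, whereas cadherins reach 50% higher.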

How the data were processed

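RNA was measured in 40 HEK293T libraries, of which the 8 of KO vector and WT vector cells in vehicle are compared here. Per the labels' protocols, poly(A) RNA was copied from random hexamer primers and sequenced from both ends (150 bases each). The authors deposited raw counts per gene symbol. The tools listed in the submitters' processing notes are HISAT2 (2.1.0) and, for counting, featureCounts (2.0.6), with the hg38 build. Their settings, the annotation and the strand setting were not given in the sources read, so reads of overlapping and antisense genes may be shared.

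Of 28278 symbols, 16739 passed filterByExpr. They were scaled by TMM and fitted with edgeR 4.0.16 (robust quasi-likelihood, 1 coefficient per group, all 40 libraries, R 4.3.3), with Benjamini-Hochberg adjustment over all tested genes and calls at an adjusted p below 0.05. The biological coefficient of variation was 0.0509. The depth of 30.7 to 32.0 (in 1e6 counts) per library sets the precision, and bounds against a count of 0 use 3 counts over the group and cover counting error only. Positions and promoters come from RefSeq tables of GRCh38.p14. Of the tested genes 292 had no position. Some items are not reported here.

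Genes named are the largest 15 differences each way with a mean log2 CPM of at least 1 and no overlap between libraries, up to 5 per list, the genes in 1 line only and the shuttle list. Further members of the ERK, ER, stress and metabolic lists, genes with an ER stress element, DYNC1I2, HAT1, DLX1, NEFL, NES, KRT8 and KRT18 were named after their values were seen. The comparison and the 49 lists were chosen with earlier results of these data known. Alternatives were DESeq2 1.42.0 size factors and its Wald test, no filter, the 8 libraries alone, the replicate block, each library left out, counts halved, and a fit without the libraries labelled SLC25A12-WT. Lists without the 39 chromosome blocks, and F137S against KO vector cells, were added after seeing the data. Counts simulated for this comparison (14906 genes) served as a check. With 50 genes changed per size, those found were 49 for a 2-fold change, 46 for 1.5-fold, 31 for 1.25-fold and 3 for 1.1-fold. False calls made up 10 of 139 (7.19%). The simulation fitted 8 libraries alone, with the same spread for every gene and few genes changed. Its shares therefore do not describe the calls reported from the fit of 40 libraries.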

Additional observations from a re-analysis of the deposited data

Results flagged for a closer look

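Of 282 groups of 4 libraries looked at for 141 named genes, 17 held 1 library far from the other 3, measured as the gap to its nearest neighbour divided by the range of the group. Chance alone gives about 1 in 20. In KO vector cells the high library stood apart for SLC25A12 (0.942), NAPRT (0.919), COL4A4 (0.886), GOT1 (0.874), COL4A3 (0.857) and COL3A1 (0.833), and the low library for TENM1 (0.838), DNMT1 (0.832) and ATF3 (0.831). In WT vector cells the high library stood apart for FOS (0.981) and CNKSR1 (0.853) and the low library for TRIB3 (0.86). The ratio was 1 for ARMCX2, CSAG1, HBE1 and LINC01419 in KO vector cells and for MYO3B in WT vector cells, where only 1 library held any counts. NAPRT stood at 2.68 CPM in KO vector replicate 3, against 0.755 to 0.912 CPM in the other KO vector libraries.

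For 22 named genes the line difference differed between treatments, tested as the difference under antimycin A minus that in vehicle in edgeR's fit. It was more negative under antimycin A for CHAC1 (-1.26), DDR2 (-1.26), HOXB6 (-0.49), SLC7A11 (-0.48), ADAMTS1 (-0.44), SESN2 (-0.41), ATF4 (-0.28), HMOX1 (-0.25), JUN (-0.25), ATF3 (-0.22) and ALDH1L2 (-0.18). It was more positive for FOXO4 (0.58), DNAJB9 (0.45), SDF2L1 (0.34), SLC1A3 (0.32), HERPUD1 (0.30), MANF (0.26), CRELD2 (0.25), ERO1B (0.23), HSPA5 (0.20), SERP1 (0.20) and NAMPT (0.17), each lower in KO vector cells in vehicle. For DDR2, KO vector minus WT vector was -2.58 in vehicle and -3.84 under antimycin A, and for CHAC1 it was 0.13 and -1.14.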

How the results depend on the processing

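The count of 8080 calls ran from 7568 to 8111 over the alternatives at the same threshold, with 3484 to 4098 higher and 3830 to 4261 lower. A call at 2-fold or more left 572 genes, 273 higher and 299 lower. Leaving out single libraries gave 7568 to 7609 calls, 3484 to 3580 higher and 4029 to 4113 lower. Under antimycin A the 8034 calls became 7588 to 7685 when single libraries were left out, 3454 to 3499 higher and 4117 to 4186 lower. Genes present in 1 line only numbered 22 instead of 13 when up to 10 counts were allowed in the other line.

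Same-numbered libraries did not deviate together, with correlations of 0.00707, 0.00819, 0.00288 and -0.0196 over the 4 pairs, and 0 of 4 correlated best with their own number. With the replicate number as a block there were 8047 calls, and 7916 in the 8 libraries alone. The numbers are therefore not taken to pair the samples.

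Of 141 named genes none changed sign where called, and 130 were called. ASNS lost its call under 11 of 16 alternatives, CNKSR1 when KO vector replicate 3 or 4 or WT vector replicate 2 or 3 was left out, and NAPRT with the replicate block in the 8 libraries alone. Among list counts that moved by over 1.5 times, glycolytic genes that rose became 5 instead of 3 under 6 alternatives, DESeq2 size factors among them. ERK members that rose became 2 without KO vector replicate 4 or WT vector replicate 2, shuttle members that rose became 1 without WT vector replicate 1, HOX genes that rose became 3 and innate immune genes that fell 3 without WT vector replicate 3, cadherins that fell became 4 without KO vector replicate 4 and 1 without WT vector replicate 3, and proteoglycan genes that fell became 5 without KO vector replicate 1 or WT vector replicate 2. The cause was not tested. Genes below about 1 CPM, and single genes with near-identical copies, are the least certain.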
